A study of Homo sapiens with 2 samples.

Results

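The death receptor pathway of TRAIL and FAS was followed here through 10 genes in PC-3 cells. They were the ligand TNFSF10 (TRAIL), its death receptors TNFRSF10A and TNFRSF10B, its decoy receptors TNFRSF10C and TNFRSF10D, the receptor FAS, the adaptor FADD, the initiator caspase CASP8, and the inhibitors CFLAR (c-FLIP) and XIAP. All probe sets annotated to exactly 1 of these genes were taken, which gave 46 of the 54613 probe sets that are not array controls, and 10 of the 19775 genes named in the annotation. The rule that picks the probe sets uses no measured value, but the genes were chosen with earlier results of these data known.

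Gene expression was measured on 2 oligonucleotide arrays, 1 of PC-3 cells that had received a vector expressing a short hairpin RNA (shRNA) against SHISA2 (siSHISA2) and 1 of PC-3 cells with a control shRNA vector (siCONTROL). Both arrays held total RNA of the same line, a human prostate cancer line from a bone metastasis that is known to lack functional p53. The sequences of the hairpins, the time after transfection and the number of cultures behind each RNA are not given in the sources used here. With 1 array per group there was no replicate and no test, so every difference below describes these arrays, and no p-value was computed.

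Death receptors are members of the TNF receptor superfamily that carry a death domain inside the cell. When TRAIL or FAS ligand clusters them they recruit FADD, FADD recruits procaspase-8, and caspase-8 activated in this complex cleaves the effector caspases and BID, which opens the mitochondrial arm of apoptosis. CFLAR resembles caspase-8, lacks its protease activity and competes for the complex, XIAP blocks effector caspases and caspase-9 further down, and the decoy receptors bind TRAIL without a working death domain. TRAIL is also known as an interferon-induced gene, and CFLAR and XIAP as genes that NF-kB can raise.

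Signals are the linear MAS5 values of the deposited table. A probe set was measured if its higher signal passed a floor of 47.9, the median of all signals, and lower signals were raised to that floor before a log2 ratio of siSHISA2 over siCONTROL was formed. Of the 54613 probe sets 29305 were measured, and they stood for 12931 named genes. As a yardstick for technical error, log2 ratios of the 2 brightest probe sets of a gene differed with a spread of 0.286 per probe set (the SD of the difference over the square root of 2, over 6428 genes). Among probe sets with both signals above 387.3, the 75th percentile of all signals, the spread was 0.150. It does not cover how cultures, RNA preparations or arrays differ. SHISA2 itself read 1506 in the siSHISA2 array and 3536 in the siCONTROL array, 42.6% of the control signal (log2 ratio -1.23). KRT8 and KRT18, keratins of simple epithelium, read 1990 and 17533 in the siSHISA2 array and 2283 and 18340 in the siCONTROL array. Of 6 epithelial markers 4 passed the floor, these keratins among them. EPCAM gave 313 in the siSHISA2 array against 354, and KRT5 gave 53.7 against 37.1, the latter under the floor. The keratin KRT19 and the epithelial cadherin CDH1 were not above the floor. Of 3 androgen-driven luminal markers with a probe set 2 passed, KLK3 at 251 against 242 and KLK2 at 71.3 against 20.6, the latter under the floor. EPCAM, KRT5 and KLK3 were named after their values were seen. Of 8 leukocyte markers with a probe set only CD3E and CD79A passed the floor, with a summed signal of 222 in the siSHISA2 array and 140 in the siCONTROL array, while PTPRC, the pan-leukocyte marker CD45, was under it. Of 3 endothelial markers 2 passed, with a summed signal of 383 in the siSHISA2 array and 260.5 in the siCONTROL array. Most of it came from the cadherin CDH5 at 262 against 156 (0.75), and the 2 measured probe sets of PECAM1 ran from -0.56 to 0.22. Of 4 fibroblast markers 2 passed, at 630.3 against 823, mostly from COL1A1 at 577 against 787 on its brightest probe set (-0.45). Of the 3 measured COL1A1 probe sets 2 read higher, up to 0.92. DCN, named after its value was seen, read 53.3 against 35.9, the latter under the floor. The part of these markers in the results was not tested.

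The promoter windows of TNFSF10, CFLAR and CASP8 are shown first, because these are the 3 genes with several measured probe sets that all read higher in the siSHISA2 array, CASP8 only slightly. They were picked by that outcome, so the motif matches cannot be tied to it. Each window is the 250 bases before the first start that RefSeq lists for the gene on GRCh38.p14, written 5′ to 3′ on the gene's strand. The windows are chr3:172523431-172523680 on the minus strand for TNFSF10, and chr2:201118466-201118715 and chr2:201233213-201233462 on the plus strand for CFLAR and CASP8. Capitals mark matches on either strand to the searched motifs.
TNFSF10: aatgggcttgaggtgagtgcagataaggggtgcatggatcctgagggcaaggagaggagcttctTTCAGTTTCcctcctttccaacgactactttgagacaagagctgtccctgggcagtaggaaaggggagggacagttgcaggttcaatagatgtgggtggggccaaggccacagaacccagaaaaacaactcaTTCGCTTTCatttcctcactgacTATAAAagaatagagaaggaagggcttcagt
CFLAR: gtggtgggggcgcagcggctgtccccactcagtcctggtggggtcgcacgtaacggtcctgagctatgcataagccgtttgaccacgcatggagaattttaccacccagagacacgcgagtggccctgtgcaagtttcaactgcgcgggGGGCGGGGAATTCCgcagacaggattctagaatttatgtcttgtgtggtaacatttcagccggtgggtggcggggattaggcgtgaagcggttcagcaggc
CASP8: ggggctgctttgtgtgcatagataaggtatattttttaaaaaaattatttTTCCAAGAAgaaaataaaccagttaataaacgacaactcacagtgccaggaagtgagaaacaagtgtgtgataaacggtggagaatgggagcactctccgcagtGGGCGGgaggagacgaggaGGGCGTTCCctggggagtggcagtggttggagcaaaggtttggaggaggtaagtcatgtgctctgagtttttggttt

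The motifs were NF-kB (GGGNNTTCC), the core of ISRE, the interferon-stimulated response element (GAAANNGAA), GAS, the STAT element (TTCNNNGAA), FOXO (GTAAACA), SP1 (GGGCGG), the TATA box (TATAAA) and AP-1 (TGANTCA). The TNFSF10 window held ISRE core matches 186 to 178 and 54 to 46 bases before the start on the opposite strand, and a TATAAA match 31 to 26 bases before it. Of 35097 such windows of all listed genes 6.88% held an ISRE core match and 10.7% a TATAAA match. The CFLAR window held an NF-kB match 96 to 88 bases before the start that shares its first base with an SP1 match, and NF-kB matches occurred in 5.77% of all windows and SP1 matches in 42.6%. The CASP8 window held NF-kB, GAS and SP1 matches, and 6.56% of all windows held a GAS match. FOXO and AP-1, found in 2.98% and 6.57% of all windows, had no match in these 3 windows. The other starts that RefSeq lists, 3 for CFLAR and 2 for CASP8, had no NF-kB match in their windows. Some of those windows held ISRE core, AP-1, SP1 or TATAAA matches. An NF-kB match was not particular to the genes shown. The window of the first listed start of FAS, whose probe sets did not all read higher, held one 216 to 208 bases before the start, with AP-1 and SP1 matches. Such matches describe letters only and do not show binding.

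**Figure D1:**
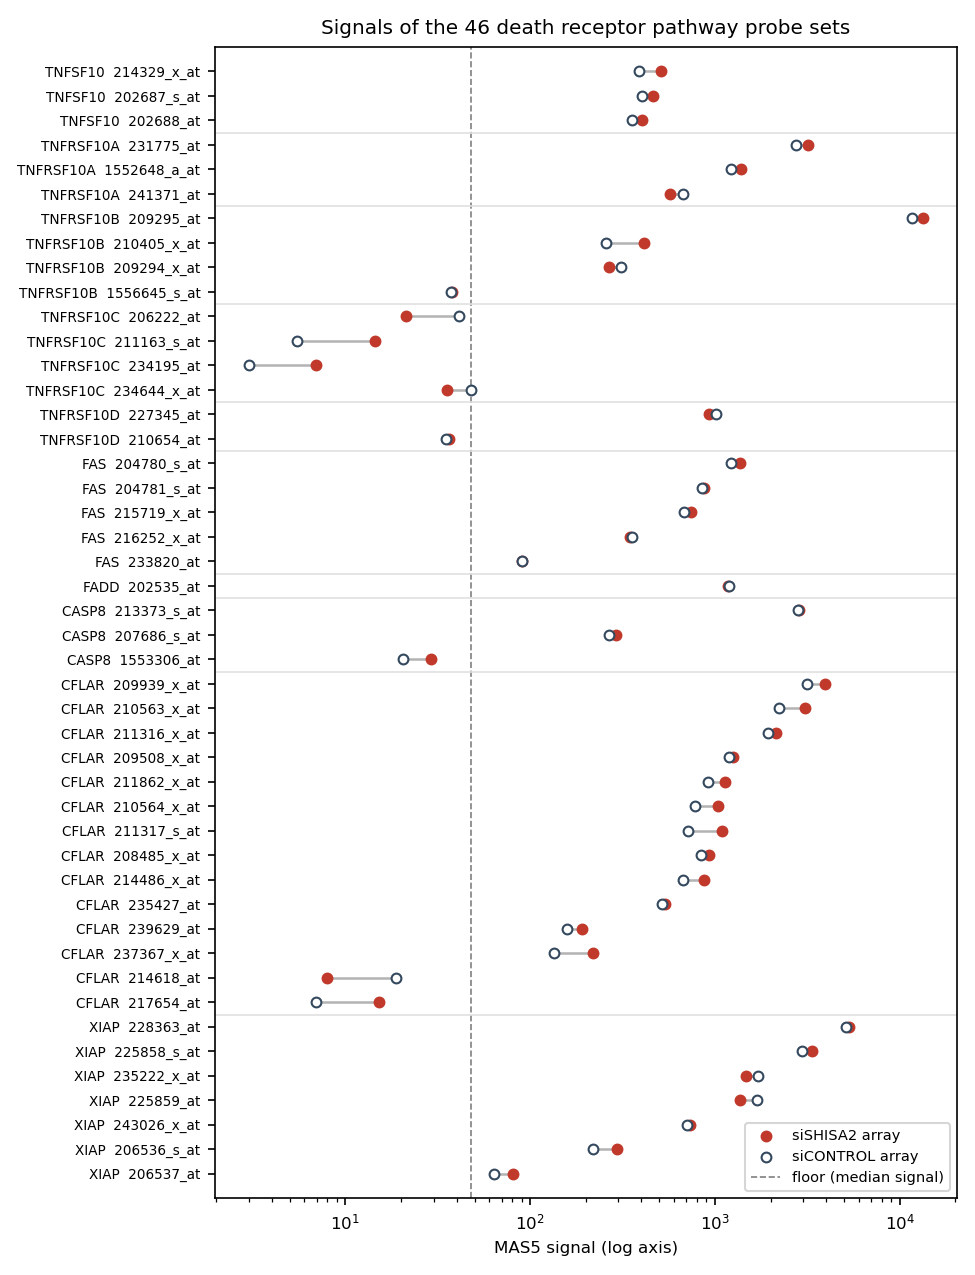
Signals of all 46 probe sets of the 10 genes on a log axis, with filled points for the siSHISA2 array, open points for the siCONTROL array and a dashed line at the floor of 47.9. The 12 CFLAR probe sets above the floor all have the filled point to the right, and all 4 TNFRSF10C probe sets lie left of the line in both arrays.

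Of the 46 probe sets 37 were measured, each with both signals above the floor, and 9 of the 10 genes had at least 1 of them. Each of those 9 genes had at least 1 probe set with both signals above 387.3. Of the 37 probe sets 29 read higher in the siSHISA2 array and 8 lower, where 53.3% of all measured probe sets read higher. Their median log2 ratio was 0.16, against 0.02 over all measured probe sets. None of them was 2-fold apart, a size that 1.83% of all measured probe sets reached. At least 1.5-fold higher were 3 of the 37, where the share over all probe sets was 6.67%, and none was 1.5-fold lower, where it was 4.35%. The differences were thus small in size and mostly on the higher side. In RNA of a whole culture, a difference in how many cells hold a transcript and in how much each cell holds cannot be told apart.

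The count rests in large part on CFLAR and on probe sets that can read other transcripts. Without the 12 CFLAR probe sets, 17 of 25 read higher and the median was 0.12. Among the 13 probe sets that are not of the _x_at or _s_at kinds, which can share probes with other transcripts, 8 read higher and 5 lower, with a median of 0.05. All measured probe sets outside those kinds had a median of 0.02 and 52.8% of them read higher. Probe sets of 1 gene also share its RNA and are not replicates.

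The ligand TNFSF10 read higher on all 3 of its probe sets. Probe set 214329_x_at read 508 in the siSHISA2 array and 389 in the siCONTROL array (log2 ratio 0.38). The other probe sets gave 462 against 403 (0.20, 202687_s_at) and 404 against 358 (0.18, 202688_at), siSHISA2 first. The signals of the siSHISA2 array lay 1.13-fold to 1.30-fold above those of the siCONTROL array, and the ratios spanned 0.21. The 2 brighter probe sets, with all signals above 387.3, differed by 0.18. The spread of 0.150 among such probe sets is per probe set, and a difference between 2 of them varies more than that. Among the 1740 genes with exactly 3 measured probe sets 19.4% read higher on all of them, and 15.7% had a median ratio at or above that of TNFSF10. FASLG, which encodes FAS ligand, stayed under the floor on both its probe sets, with no signal over 33.9.

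TNFRSF10A, the death receptor DR4, read higher on 2 of its 3 probe sets and lower on the other. Probe set 231775_at gave 3205 in the siSHISA2 array and 2751 in the siCONTROL array (0.22), and 1552648_a_at gave 1376 against 1219 (0.18). Probe set 241371_at gave 570 in the siSHISA2 array against 674 in the siCONTROL array (-0.24). None of the 3 is of the kinds that share probes, so their disagreement of 0.46 is within this gene's own annotation. Of genes with exactly 3 measured probe sets 44.1% spanned at least as much.

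TNFRSF10B, the death receptor DR5, had the widest disagreement between probe sets of the 9 measured genes. Probe set 209295_at read 13416 in the siSHISA2 array and 11681 in the siCONTROL array (0.20). Probe set 210405_x_at read 415 against 256.0, 1.62-fold higher in the siSHISA2 array (0.70), while 209294_x_at read 266.0 against 309 (-0.22). The ratios of this gene spanned 0.91, and 11.0% of genes with exactly 3 measured probe sets spanned as much. Probe set 1556645_s_at stayed below the floor on either array.

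Of the probe sets annotated to a TRAIL decoy receptor alone, 1 was measured. TNFRSF10C, the decoy DcR1 that is anchored to the membrane by a lipid, was not measured on any of its 4 probe sets, whose signals were 6.9 to 35.6 in the siSHISA2 array and 3.0 to 47.6 in the siCONTROL array. Of the 2 probe sets that it shares with the noncoding RNA LOC254896, 210484_s_at gave 107 in the siSHISA2 array and 72.6 in the siCONTROL array (0.56), and 210483_at gave 185 against 188.0 (-0.02). TNFRSF10D, the decoy DcR2 with a truncated death domain, read 927 in the siSHISA2 array and 1015 in the siCONTROL array on 227345_at (-0.13). Its second probe set, 210654_at, was under the floor. A difference of 0.13 is smaller than the technical spread, so the direction of TNFRSF10D is not settled.

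The 5 probe sets of FAS differed little from one another and little between the arrays. The signals of 204780_s_at were 1366 in the siSHISA2 array and 1225 in the siCONTROL array (0.16), and those of 204781_s_at were 878 and 849 (0.05). For 215719_x_at they were 743 against 685 (0.12), for 216252_x_at 349 against 354 (-0.02), and for 233820_at 89.8 against 90.5 (-0.01), siSHISA2 first in each. The 3 brightest probe sets read slightly higher and the 2 dimmest were nearly level. The 5 ratios spanned 0.18, and 97.5% of the 514 genes with 5 or more measured probe sets spanned at least as much. Their median of 0.05 was passed or met by 39.9% of those genes.

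FADD and CASP8, the parts that every death receptor of this kind shares, were nearly level. FADD, read by 1 probe set, had signals of 1172 in the siSHISA2 array and 1192 in the siCONTROL array (-0.02). CASP8 read 2858 against 2813 on 213373_s_at (0.02) and 293 against 268 on 207686_s_at (0.13). Probe set 1553306_at was under the floor, at 28.9 in the siSHISA2 array and 20.4 in the siCONTROL array. Both measured CASP8 ratios lay above 0, as they did in 30.9% of the 3410 genes with exactly 2 measured probe sets.

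**Figure D2:**
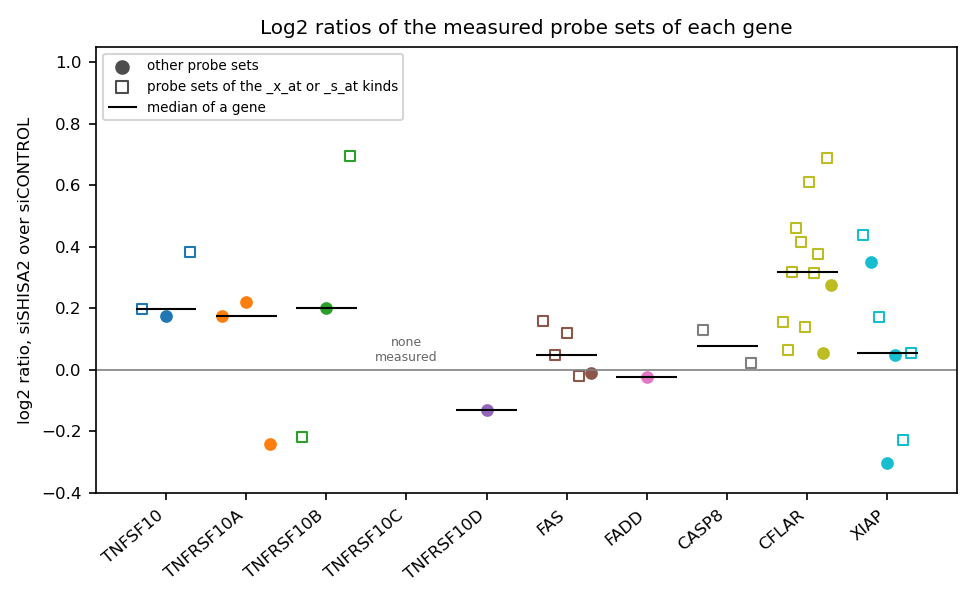
Log2 ratio of siSHISA2 over siCONTROL for each of the 37 measured probe sets, by gene, with open squares for probe sets of the _x_at or _s_at kinds, filled circles for the others and a line at each gene's median. CFLAR has the highest median (0.32) with all 12 points above 0, while XIAP spreads on both sides of 0 from -0.30 to 0.44.

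CFLAR, the inhibitor that competes with caspase-8, read higher on all 12 of its measured probe sets. Its brightest, 209939_x_at, gave 3930 in the siSHISA2 array and 3150 in the siCONTROL array (0.32), and 210563_x_at gave 3068 against 2227 (0.46). Probe set 211317_s_at gave 1095 against 717, 1.53-fold higher (0.61), and the dim 237367_x_at gave 218 against 135, 1.61-fold higher (0.69). At the low end, 209508_x_at gave 1253 against 1197.0 (0.07) and 235427_at gave 537 against 518 (0.05).

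The mean ratio of CFLAR was 0.32 ± 0.20 (SD over 12 probe sets) and the median was 0.32, with 8 of the 12 at least 1.2-fold higher, a size that 20.9% of all measured probe sets reached. In between lay 210564_x_at at 0.42, 214486_x_at at 0.38, 211862_x_at at 0.31, 239629_at at 0.28, 208485_x_at at 0.16 and 211316_x_at at 0.14. Of the 514 genes with 5 or more measured probe sets, 36 read higher on all of them, and 6.42% had a median at or above that of CFLAR. Of the 7 genes with 10 or more measured probe sets, CFLAR included, 2 read higher on all of them. All 12 stayed above 0 after median centring, quantile normalization and removal of a loess trend. Probe sets 214618_at and 217654_at stayed below the floor.

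Of the 12 CFLAR probe sets 10 are of the _x_at or _s_at kinds, which can share probes with other transcripts. All 12 read RNA of the same gene, so they are not 12 separate readings. The median of the 10 was 0.35. The other 2, 235427_at and 239629_at, had a median of 0.17, and the brighter of them stood at 0.05. Which splice forms of CFLAR, the long or the short protein, the signals belong to was not resolved by this annotation.

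XIAP, the caspase inhibitor that acts downstream of the receptors, was read by 7 probe sets that did not agree in direction. Probe set 228363_at gave 5314 in the siSHISA2 array and 5135 in the siCONTROL array (0.05), and 225858_s_at gave 3342 against 2966 (0.17). Lower were 225859_at at 1367 against 1688 (-0.30) and 235222_x_at at 1465 against 1715 (-0.23). Bright probe sets were thus found on both sides of 0.

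The dimmer XIAP probe sets all read higher. Probe set 243026_x_at gave 730 in the siSHISA2 array and 703 in the siCONTROL array (0.05), 206536_s_at gave 295 against 218 (0.44), and 206537_at gave 81.2 against 63.7 (0.35). The median over the 7 was 0.05, which 38.7% of genes with 5 or more measured probe sets reached or passed. The span of 0.74 was close to the median span of 0.70 among those genes.

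The values were also set against probe sets of like brightness. All measured probe sets were put into 10 groups of equal size by their mean signal, and the range from the 5th to the 95th percentile of the log2 ratio was taken in each. It ran from -0.51 to 0.50 for signals of 324 to 543, and from -0.34 to 0.30 for signals of 1690 to 3525. Of the 37 probe sets 5 (13.5%) lay above the 95th percentile of their group, as did 5.02% of all measured probe sets by construction, 32 lay between the percentiles and none lay below. The 5 were 210405_x_at of TNFRSF10B and 209939_x_at, 210563_x_at, 210564_x_at and 211317_s_at of CFLAR. In their own groups 1.84%, 4.16%, 1.30%, 4.71% and 1.47% of probe sets had ratios as high or higher, in that order. All 5 are of the kinds that can share probes.

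**Figure D3:**
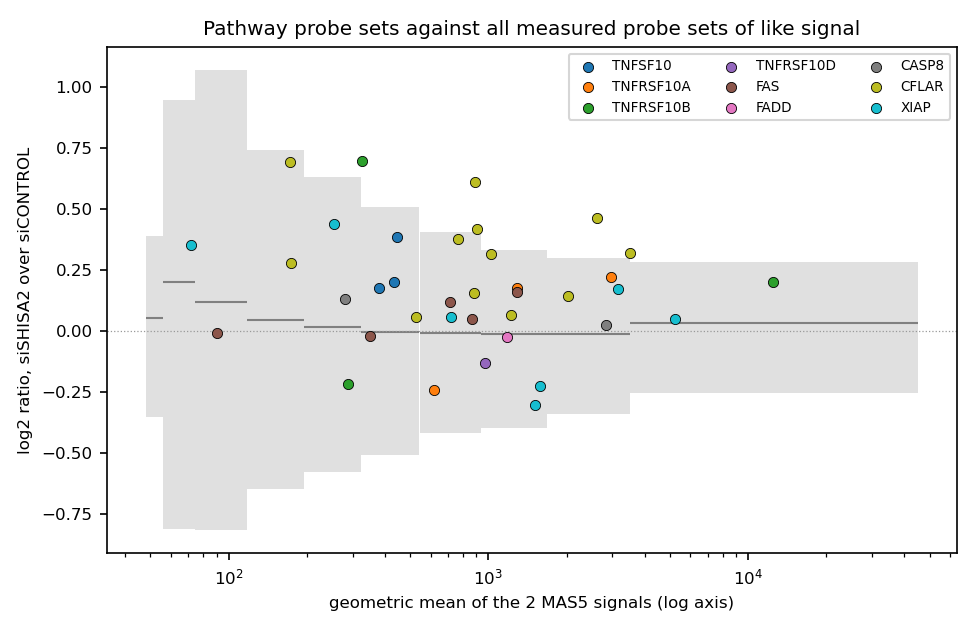
Log2 ratio of siSHISA2 over siCONTROL against the geometric mean of both signals (log axis) for the 37 measured probe sets, coloured by gene, over grey bands from the 5th to the 95th percentile of all measured probe sets in 10 groups by signal, with the group median as a line. Of the points 32 lie inside the bands and 5 above, 4 of them CFLAR and 1 TNFRSF10B.

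At the level of genes, each read by its brightest measured probe set, 7 of the 9 measured genes read higher in the siSHISA2 array, where the share over all genes was 52.2%. The highest ratios were those of TNFSF10 (0.38) and CFLAR (0.32), followed by TNFRSF10A (0.22), TNFRSF10B (0.20), FAS (0.16), XIAP (0.05), CASP8 (0.02), FADD (-0.02) and TNFRSF10D (-0.13). Neighbours in this order differed by no more than 0.11, under the technical spread of bright probe sets, so the order has little weight.

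The rest of the pathway was read with a list of 41 further genes, of which 35 had a probe set of their own in the annotation used here and 33 were measured. Of these 17 read higher and 16 lower in the siSHISA2 array, with a median of 0.04, against 0.01 over all genes. The split was near even. Of the 33, only TNFRSF11B was 2-fold apart, a size reached by 1.48% of all genes, and 3 genes of the list were 1.5-fold lower and none 1.5-fold higher, where 8.78% of all genes were 1.5-fold apart in either direction. Genes of the list that were not measured took no part in these counts, and not every measured gene is named below.

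TNFRSF11B encodes osteoprotegerin, a soluble decoy that binds RANKL and also TRAIL, and it was lower on both of its probe sets. Probe set 204932_at gave 92.6 in the siSHISA2 array and 204.9 in the siCONTROL array (-1.15), and 204933_s_at gave 57.2 against 138 (-1.27). The lower signals were near the floor. TNF, another death ligand, read 299 against 328 (-0.14), and its receptor TNFRSF1A 1847 against 2175 (-0.24), both named after their values were seen.

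TNFRSF25, the death receptor DR3, read higher on all 5 of its probe sets and was named after its values were seen. Its brightest, 219423_x_at, gave 325 in the siSHISA2 array and 271 in the siCONTROL array (0.26), and 211841_s_at gave 130.1 against 49.7 (1.39), where the siCONTROL signal only just passed the floor. Of the 309 genes with exactly 5 measured probe sets 8.09% read higher on all 5. All but 1 of its probe sets are of the kinds that can share probes.

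Among adaptors, 5 of 8 measured genes read higher, with a median of 0.07. TRADD, which links death domains of TNF receptors to downstream kinases, gave 1632 in the siSHISA2 array and 1240 in the siCONTROL array (0.40, with 0.29 on its other probe set). DAXX, described as a FAS-binding protein and named after its values were seen, gave 539 against 547 on one probe set (-0.02) and 744 against 260.3 on the other, 216038_x_at (1.51). The readings of DAXX thus disagreed by more than those of any of the 10 genes.

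Of 6 measured caspases and caspase substrates 3 read higher. CASP10, an initiator caspase that lies between CFLAR and CASP8 on chromosome 2, was dim and at least 1.59-fold lower, with 43.3 under the floor in the siSHISA2 array and 76.1 in the siCONTROL array. All 3 of its measured probe sets were lower, each with the siSHISA2 signal under the floor. PARP1, a DNA repair enzyme that effector caspases cleave, gave 2622 against 3446 (-0.39).

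In the mitochondrial arm 3 of 5 genes read higher, with a median of 0.08. APAF1, the apoptosome scaffold, gave 679 in the siSHISA2 array and 1027 in the siCONTROL array on its brightest probe set (-0.60), but 168.0 against 138 on another (0.29). BID, the caspase-8 substrate that links the receptors to mitochondria, was named after its value was seen and stood at 0.10, with 2042 against 1908. Of the IAP proteins, the family of XIAP, BIRC5 (survivin) was lower on all 4 of its probe sets, with 1547 against 2088 on the brightest (-0.43), and 11.9% of genes with exactly 4 measured probe sets read lower on all of them. BIRC5 is also a gene of dividing cells. BIRC2 (cIAP1) stood at 0.10 and XAF1, a XIAP-binding protein, at 0.17, higher on all 3 of its probe sets, so 2 of the 3 genes of this role read higher, with a median of 0.10. BIRC2 and XAF1 were named after their values were seen.

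**Figure D4:**
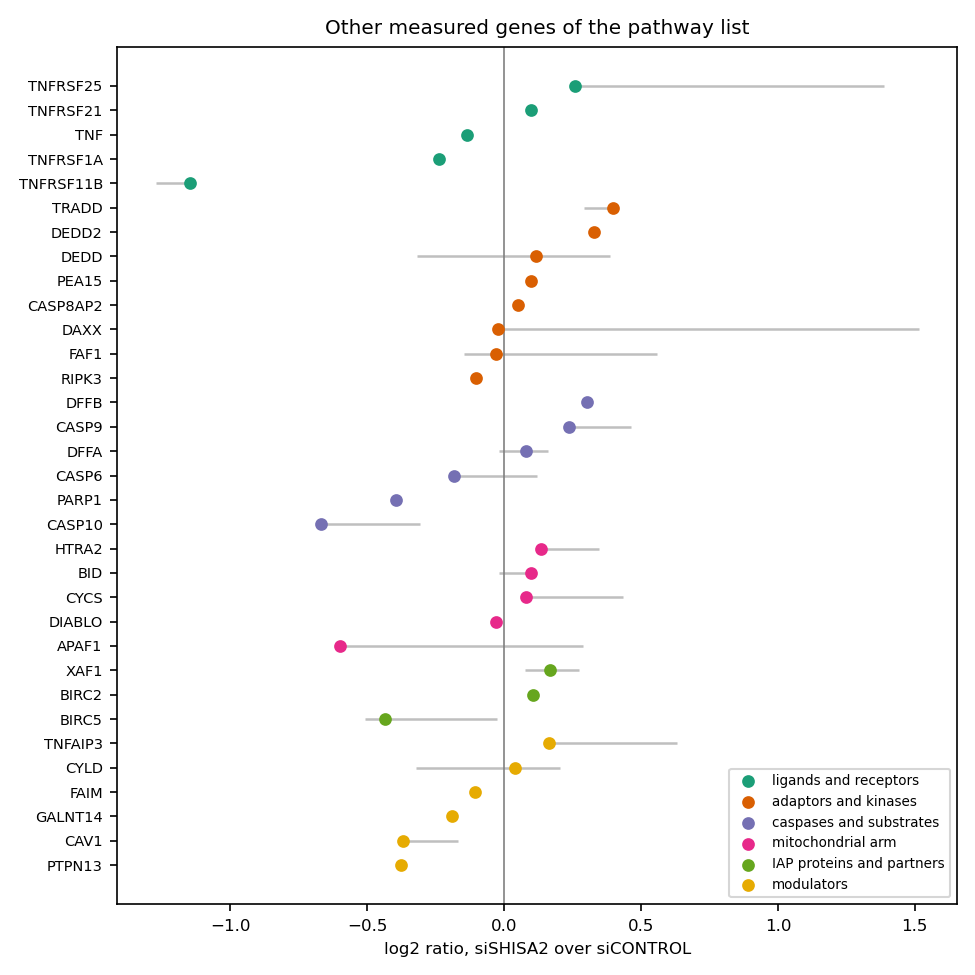
Log2 ratio of siSHISA2 over siCONTROL of the 33 measured genes of the further pathway list, coloured by role and ordered within it, with a point for the brightest measured probe set and a grey line from the lowest to the highest ratio of the gene's measured probe sets. The points lie on both sides of 0, 17 above and 16 below, and TNFRSF11B is the lowest at -1.15.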

How the data were processed

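Data of 2 arrays of PC-3 cells were used, with groups taken from the sample titles. The authors deposited linear intensities, called signals here, 1 per probe set and array. They came from MAS5 per the submitters' processing notes, and its version and scaling target are not given in the sources used here. Signals near background are noisy, so values under the floor have no order, and detection calls were not used here. Genes were named through the platform annotation, all 10 by identifiers that matched the RefSeq gene table of GRCh38.p14, and probe sets of several genes name none.

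Log2 ratios used signals raised to the floor (47.9, the median of the non-control intensities deposited). A gene was read by the brightest of its measured probe sets (mean of both log2 signals). Python 3.11.15, pandas 2.3.3 and statsmodels 0.14.6 were used, and the steps were tested on simulated data. Alternatives were floors at the 25th (11.3) and 75th (387.3) percentile, a pseudocount of 1 without a floor, quantile normalization, median centring, a loess trend (span 0.3) taken out, averaging of probe sets, leaving out the _x_at and _s_at kinds, and thresholds of 1.5-fold and 3-fold. The text names all 10 genes, SHISA2, and, per further list, up to 6 genes by size of the ratio and genes that were not measured. Other names are marked. The genes and lists were chosen with earlier results of these data known. The number of arrays limits the precision.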

Additional observations from a re-analysis of the deposited data

Results flagged for a closer look

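Probe sets annotated to several genes took no part in the counts above, and 1 of them that covers a decoy receptor read higher in the siSHISA2 array than in the siCONTROL array. Probe set 210484_s_at, annotated to TNFRSF10C and the long noncoding RNA LOC254896, gave 106.7 in the siSHISA2 array and 72.6 in the siCONTROL array (log2 ratio 0.56). That ratio lay inside the range of probe sets of like brightness, with mean signals of 73.9 to 117. Their 5th to 95th percentile ran from -0.82 to 1.07. The second probe set with that annotation, 210483_at, gave 185.3 against 188.0 (-0.02). The 4 probe sets annotated to TNFRSF10C alone were under the floor in both arrays, so the signal cannot be assigned to either gene.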

How the results depend on the processing

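The brightest-probe-set ratios of TNFSF10, TNFRSF10A, TNFRSF10B, CFLAR, XIAP and CASP8 stayed above 0, and those of TNFRSF10D and FADD below 0, under every alternative that gave a value. Several alternatives could hardly change a sign. The other floors left these ratios the same, the pseudocount barely moved them, and median centring shifted all of them by the same small amount. FADD and TNFRSF10D had 1 measured probe set each, not of the _x_at or _s_at kinds, so averaging or leaving out those kinds could not change them. Leaving out those kinds also could not change TNFRSF10A, TNFRSF10B and XIAP, whose brightest probe sets are of other kinds. FAS ranged from -0.01, without the _x_at and _s_at kinds, to 0.18, and CFLAR from 0.05, also without those kinds, to 0.33. TNFRSF10C gave a value only with the lower floor (-0.42) and after quantile normalization (-0.06). The median over the pathway's probe sets was 0.05 without those kinds and 0.12 without CFLAR, a setting chosen after seeing the data, and 0.14 to 0.17 otherwise. The median of the further list was -0.02 without those kinds and 0.02 to 0.05 otherwise. No probe set of the 10 genes was 2-fold apart under any floor or scaling, or 3-fold apart, and 3 were 1.5-fold apart. Over all measured probe sets 535 were 2-fold apart, 7556 with the lower floor, 16 with the higher one, and 3232 and 28 at 1.5-fold and 3-fold. No paired analysis was possible because each group has 1 array.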

Other observations

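The wider TNF receptor superfamily was read with 24 genes outside the 10. Some of them, TNFRSF11B, TNFRSF1A and TNFRSF25 included, were also in the list of 41, so the 2 counts are not separate. Of the 24 genes 15 were measured, 10 higher and 5 lower in the siSHISA2 array, with a median log2 ratio of 0.08. Over all genes 52.2% read higher and the median was 0.01. Besides TNFRSF11B, the largest ratios belonged to dim genes. TNFRSF11A, the RANKL receptor RANK, gave 80.7 in the siSHISA2 array and 126.4 in the siCONTROL array (-0.65). TNFRSF9, the costimulatory receptor 4-1BB, gave 65.9 against 102.9 (-0.64). The B cell receptors TNFRSF13B and TNFRSF13C were at least 1.34-fold and 1.27-fold higher from control signals under the floor, so 2 of the 10 higher genes rest on such signals. CD40, a costimulatory receptor also found on epithelial cells, gave 1026 against 833 on its brightest probe set (0.30), while its 4 probe sets ran from -0.26 to 0.75. TNFRSF12A, the receptor of TWEAK and named after its value was seen, was bright and nearly level at 14232 against 13592 (0.07).

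The genes for the 4 TRAIL receptors lie next to each other on chromosome 8 in the order TNFRSF10B, TNFRSF10C, TNFRSF10D and TNFRSF10A, between RHOBTB2 and CHMP7, by the RefSeq gene table. RHOBTB2 gave 89.8 in the siSHISA2 array and 117.4 in the siCONTROL array (-0.39), and CHMP7 gave 1068 against 933 (0.20), close to TNFRSF10A. Around CFLAR on chromosome 2, NDUFB3, a subunit of respiratory complex I, gave 4808 against 4131 (0.22), and CASP10 on the other side was lower. NCEH1 beside TNFSF10 stood at 0.14, ACTA2 beside FAS at 0.15, PPFIA1 beside FADD at -0.07, and THOC2 and STAG2 on both sides of XIAP at 0.04 and -0.19. GHSR, CH25H, ANO1 and FLACC1, the other coding neighbours, were not measured.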
